A study of Caenorhabditis elegans with 4 samples.

Results

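The 4 genes described here act in the synthesis of glutathione or in the handling of its sulfur-containing precursors in Caenorhabditis elegans. They are gcs-1, E01A2.1 (now named gclm-1), cbl-1 and cth-1, found by their names in the authors' 4 deposited tables. All 4 were found, on 5 of the 393 rows, among 302 genes that the tables name. The libraries were made from whole young adult animals of strain N2, the wild type, and strain VZ1, known to carry a deletion of the thioredoxin gene trx-1. Animals of each strain were either kept unstressed on the OP50 bacterial food or exposed to 10 mM NaAs, sodium arsenite, for 5 h, and each of these 4 groups has 1 library. No difference below therefore has a replicate check, and each of the authors' tests compares 2 libraries, not 2 conditions. The tables list only genes that passed the authors' threshold, so that a gene not listed has no value in that comparison.

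Glutathione is the main small thiol of animal cells, and glutathione S-transferases use it to capture reactive compounds and arsenicals. Glutamate-cysteine ligase joins glutamate to cysteine in the rate-limiting step, and glutathione synthetase then adds glycine. Cysteine comes from the diet or from methionine through homocysteine and cystathionine, a route called transsulfuration. In C. elegans gcs-1 is a widely used reporter gene of SKN-1, a transcription factor related to mammalian Nrf proteins that turns on detoxification genes and that the series' title names beside TRX-1.

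In VZ1 the genes of both subunits of glutamate-cysteine ligase rose under arsenite, and cbl-1 rose in both strains. The fall of cth-1 was listed for N2. Under stress in N2, 1 of the 4 genes is listed as higher and 1 as lower. In VZ1, 3 are listed as higher and 0 as lower. A gene not listed for a strain has no fold there, so these counts do not show that it stayed unchanged. Over all genes tested the authors' tables list 0.799% as higher and 0.25% as lower under stress in N2, and 0.61% as higher and 0.125% as lower in VZ1. The genes were chosen with these results known, so their counts are a description.

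**Figure D1:**
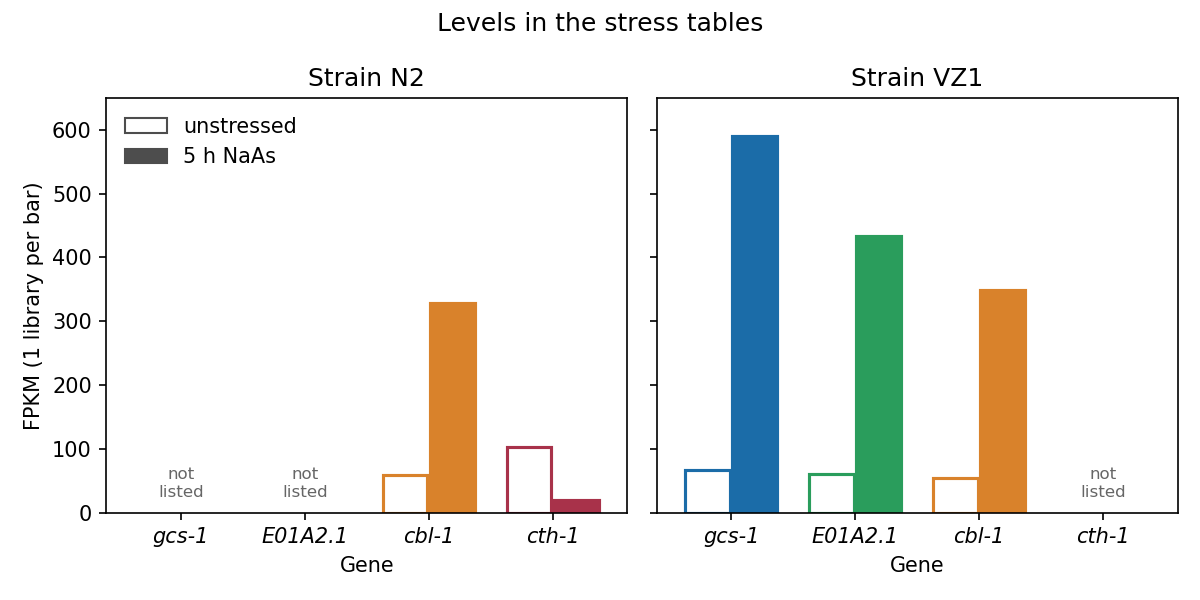
FPKM of the 4 genes in the stress tables of N2 (left) and VZ1 (right), with 1 library per bar, open bars for unstressed and filled bars for stressed animals; no error can be drawn with 1 library per group. Listed bars without stress lie between 54.1 and 103 FPKM, cth-1 is the only listed gene whose filled bar is the lower one, and no value is given where a gene is not listed.

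The gene gcs-1, which encodes the catalytic subunit of glutamate-cysteine ligase, stood at 66.0 FPKM (fragments scaled to exon length and library size) in unstressed VZ1 and at 590.4 FPKM in stressed VZ1. The stressed library was thus 8.94-fold higher, a log2 fold of 3.16. E01A2.1, whose mammalian counterpart is the modifier subunit of the ligase, stood at 60.8 FPKM without and 433 FPKM with stress, 7.13-fold higher (log2 fold 2.83). The level of the catalytic subunit's gene was 1.09 times that of the modifier's without stress and 1.36 times with stress, on the FPKM scale of the same table. The pair thus started at like levels and both ended several-fold higher, with the log2 fold of gcs-1 larger by 0.33. In the authors' deposited table E01A2.1 has a q of 0.0111, the smallest that the table holds, which 65 of the 106 rows share. The q of gcs-1 is 0.0324, although its fold is the larger of the pair. The p-value of gcs-1 in that table is 0.0002, with 17 of the 106 rows at a larger p-value.

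The gene cbl-1, named for cystathionine beta-lyase, an enzyme that in bacteria and plants cleaves cystathionine to homocysteine, is listed in both stress tables. In N2 it stood at 58.8 FPKM unstressed and 328 FPKM stressed, a 5.58-fold rise (log2 fold 2.48). In VZ1 it stood at 54.1 FPKM unstressed and 349 FPKM stressed, a 6.45-fold rise (log2 fold 2.69). Both unstressed libraries thus lay below both stressed ones, although the tables were taken as normalised separately, so that their levels may not be on exactly 1 scale. The q of cbl-1 in the authors' deposited tables is 0.00735 in N2 and 0.0190 in VZ1. The N2 value is the smallest of its table and is shared by 98 of the 151 rows, cth-1 among them. On the log2 scale the rise in VZ1 was larger by 0.21, a difference that was not tested. Of the 73 genes with values above 0 in both stress tables, which were selected as called in both, 30 had a higher difference (VZ1 minus N2) than cbl-1 and 42 a lower one, and the median of these signed differences was 0.18.

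The gene cth-1 encodes a cystathionine gamma-lyase, the enzyme that releases cysteine from cystathionine in the last step of transsulfuration. It stood at 103 FPKM in unstressed N2 and at 20.3 FPKM in stressed N2, where it was 5.08-fold lower (log2 fold −2.34, q of 0.00735 in the authors' deposited table). Of the 4 genes it was thus the only one listed as lower. Its unstressed level in N2 was above that of cbl-1, the only other member listed there. For gcs-1 and E01A2.1 no N2 level is given. In N2 the level of cbl-1 was 0.571 times that of cth-1 without stress and 16.2 times with stress. Since whole animals were used, fewer cells that make a transcript and less of it per cell cannot be told apart.

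**Figure D2:**
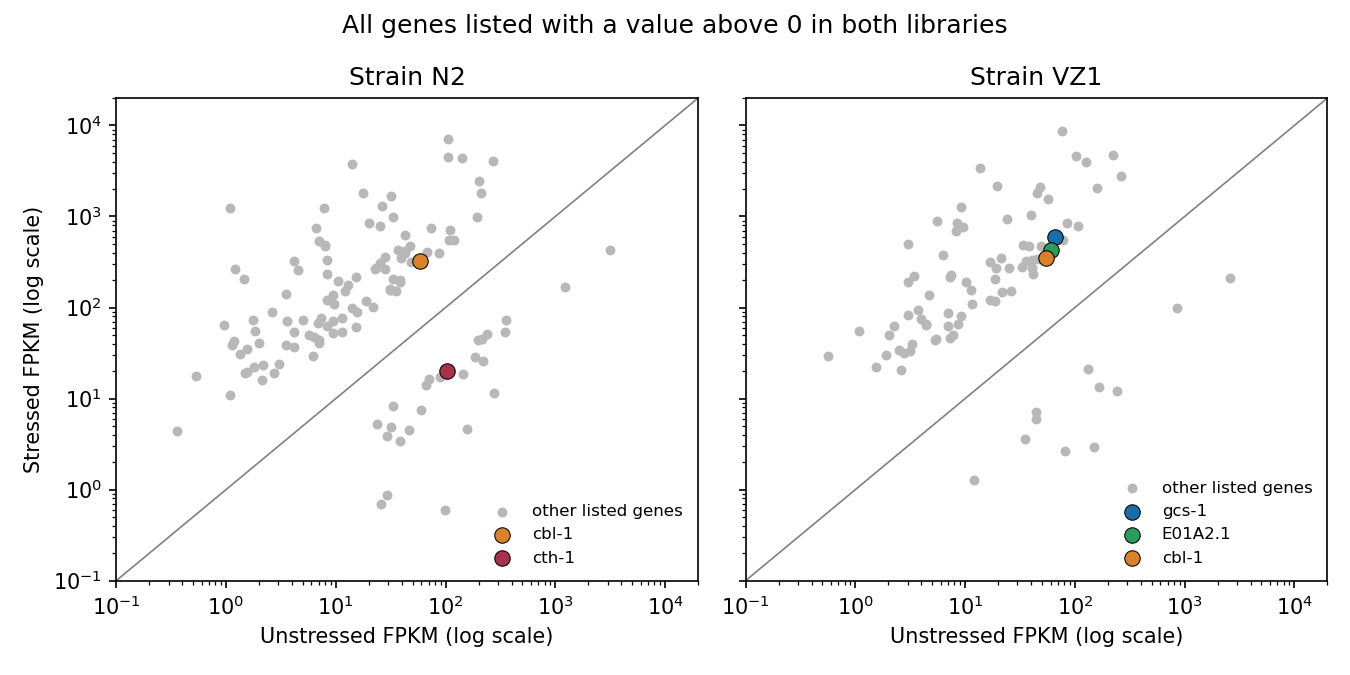
Unstressed against stressed FPKM, both on log axes, for every gene that the stress table of N2 (left) or VZ1 (right) lists with a value above 0 in both libraries; each point is 1 gene and the line marks equal levels. The rising members, in colour, lie above the line and to the right of most other rising genes, and cth-1 lies below it.

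Among listed genes the members combined a high unstressed level with a fold below the median of the listed changes in their direction. Only called genes are listed, so how level and size of fold go together over all genes is not shown. In VZ1 the unstressed levels of gcs-1, E01A2.1 and cbl-1 ranked 17, 18 and 20 among the 106 rows, and the median over the 88 rising rows was 8.48 FPKM. By size of fold they ranked 55, 66 and 71 among the 76 rising rows with a value above 0 in both libraries, whose median rise was 14.3-fold and smallest rise 5.63-fold. In N2 the unstressed levels of cth-1 and cbl-1 ranked 24 and 34 among the 151 rows. The median unstressed level of the 36 falling rows there was 68.2 FPKM, against 103 FPKM for cth-1. In N2 cbl-1 ranked 87 of 101 by size of rise, where the median was 12.1-fold and the smallest 4.02-fold. All 4 of these rises were thus below the median rise of their table. The fall of cth-1 ranked 18 of the 26 falls in N2 with a value above 0 in both libraries, whose median was 6.89-fold.

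**Figure D3:**
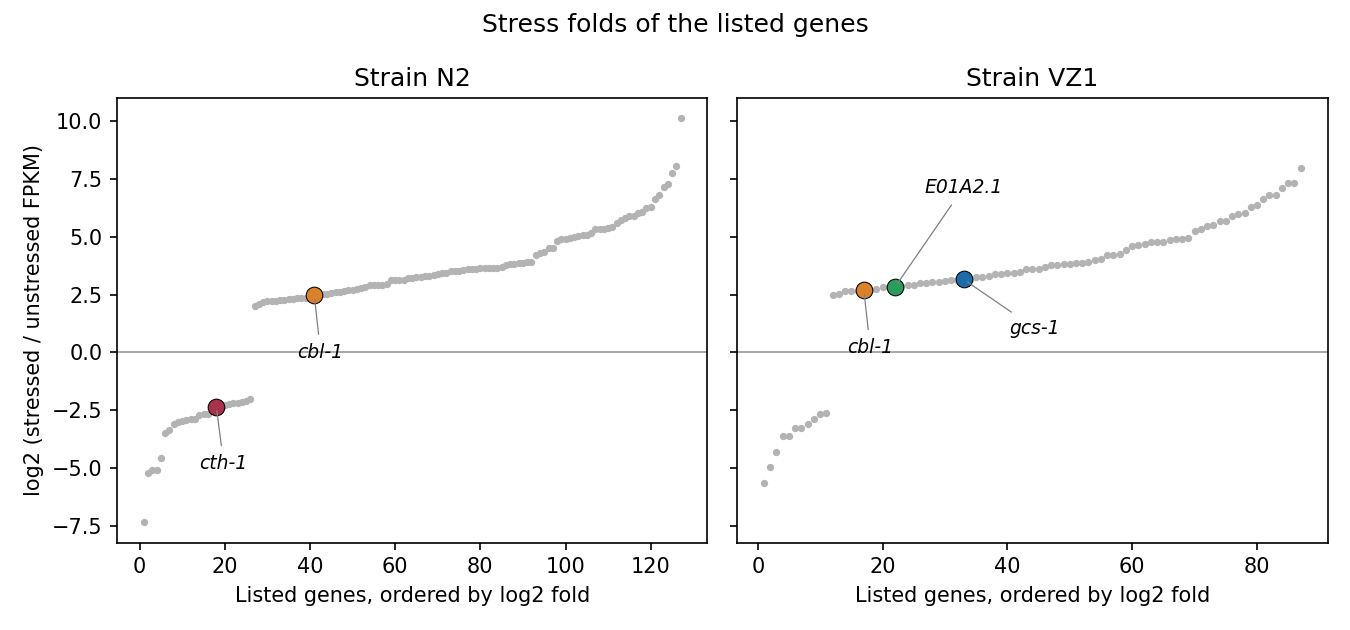
Log2 of stressed over unstressed FPKM for the genes listed with values above 0 in both libraries, ordered by fold, in N2 (left) and VZ1 (right), 1 point per gene. The members, in colour, lie toward the smaller of the listed rises (2.48 to 3.16 on the log2 scale) and, for cth-1, among the smaller falls.

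Which strain's table lists a gene does not show that the strains respond differently, and for gcs-1, E01A2.1 and cth-1 the tables hold no fold in the other strain. The sizes of fold that each table lists can be set beside these genes. The smallest fall listed in VZ1 with a value above 0 in both libraries was 6.19-fold, larger than the 5.08-fold fall of cth-1 in N2, so that 0 of the 11 such falls in VZ1 were as small as it. The N2 table does list rises smaller than those of the ligase genes in VZ1. Of its 101 rises 36 were smaller than the log2 fold of gcs-1 in VZ1 and 27 smaller than that of E01A2.1. Size of fold alone does not set the authors' q, since in VZ1 gcs-1 had both a larger fold and a larger q than E01A2.1. Why a gene is not listed was not tested.

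None of the 4 genes is listed between the strains, either without stress, where the authors' table lists 0.437% of the genes tested, or under stress, where it lists 0.508%. The libraries of the strains did differ in other genes. Among the 60 rows listed as lower in unstressed VZ1 than in unstressed N2 were 4 yolk protein genes (vit-) and 24 cuticle collagen genes (col-). How many genes of either class were tested is not known here, and those not listed have no value. Between the stressed strains 1 yolk gene and 22 collagen genes are among the 70 rows listed as lower in VZ1. There 1 collagen gene is listed as higher. Under arsenite, 5 yolk and 4 collagen genes are among the 36 rows listed as lower in N2, in the table that also lists the fall of cth-1. For stress in VZ1, where 18 rows are lower, 0 of either group is listed. Over all genes tested these lower rows are 0.25% in N2 and 0.125% in VZ1. Their part in the result for cth-1 was not tested. The tables also hold no row for trx-1 or skn-1, so the strain labels could not be checked against the level of trx-1.

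The other genes of the pathway were not listed in any of the 4 comparisons. Beside the 4 members the pathway list holds 31 genes. Of these, 0 is listed as higher or lower in either strain or between strains. Over all genes tested, the authors list 0.799% as higher and 0.25% as lower under stress in N2. In VZ1 those shares are 0.61% and 0.125%, and between strains 0.437% is listed without stress and 0.508% under stress. With shares this small, a count of 0 among 31 genes carries little information. In glutathione synthesis and recycling the unlisted genes are gss-1, the glutathione synthetase gene, and gsr-1, the glutathione reductase gene. In transsulfuration they are cbs-1 and cbs-2, named for cystathionine beta-synthase, which makes cystathionine from homocysteine, and cth-2, the paralog of cth-1. The rest are 3 gamma-glutamyl transferase genes, 4 genes of the cysteine synthase family (cysl-1 to cysl-4), 8 of the methionine cycle, 10 of cysteine and sulfide breakdown and 1 of methionine sulfoxide repair (msra-1). For these 31 genes a change too small to be called and no change cannot be told apart. Among them, sqrd-2 matched no RefSeq gene name, so it could be sought under that name only. Reads that fit both cth-1 and cth-2 could have been divided among the paralogs when the authors assigned them, so that the level of cth-1 carries that uncertainty.

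The members do not lie together in the genome. In the coordinates of the tables (build ce10, counted from 1), gcs-1 lies on chromosome II from 9035476 to 9038220 and E01A2.1 on chromosome I from 4139559 to 4142271. The locus of cbl-1 on chromosome I starts at 9327848 in both stress tables and ends at 9330838 in that of N2 and at 9330910 in that of VZ1. cth-1 lies on chromosome V from 16100020 to 16102682. Each of these loci holds 1 gene name. In the Ensembl annotation of assembly WBcel235, gcs-1 has 1 transcript with 7 exons, cbl-1 has 2 transcripts with up to 8 exons and cth-1 has 2 with up to 3. E01A2.1 has 3 transcripts with up to 6 exons, and its end overlaps poml-2 on the opposite strand by 86 bp. Whether the authors counted by strand is not given in the sources used here, so reads of that overlap could come from either gene.

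Over all genes the tables name 302, with 14358 to 14420 genes tested in each comparison. Of the 8 protein-coding genes that flank the members in the Ensembl annotation, 1 is listed in any table, a count given as a description. It is argk-1 (F44G3.2), an arginine kinase gene, which follows cth-1 on the same strand and was singled out after its values were seen. In N2 argk-1 (chromosome V, 16102941 to 16105883) stood at 38.2 FPKM unstressed and 3.41 FPKM stressed, 11.2-fold lower. Its q of 0.00735 in the authors' deposited table is the one that 98 of the 151 rows share. The genes are 1143 bp apart in the WBcel235 annotation, and the loci that the authors give for them are 258 bp apart. Both fell, and neither is listed in the other 3 tables. Flanking cbl-1, the heat shock gene hsp-70 (C12C8.1) and lin-41 are not listed.

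The genes with the most similar fold, taken as the smallest difference in log2 fold within a table, came from several groups. Closest to gcs-1 in VZ1, among 86 other genes, were C49G7.10 (6.98 to 61.9 FPKM), irg-3, a gene known to respond to infection (35.8 to 323 FPKM) and swt-6, a sugar transporter gene of the SWEET family (9.22 to 80.1 FPKM). Closest to E01A2.1 were T12D8.5 (log2 fold 2.82), the cadmium-responsive gene cdr-4 (2.82) and the glutathione S-transferase gene gst-6 (2.88). The widest of these 6 differences was 0.049, that of gst-6.

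For cbl-1 the closest folds within VZ1 were those of R05H10.1 (log2 fold 2.68), catp-3, a cation-transporting ATPase gene (2.67), and T12G3.1, which encodes the worm's p62 protein (2.72). Within N2, among 126 other genes, they were those of C50F7.5 (log2 fold 2.49), C49G7.10 (2.52) and H20E11.3 (2.54). Over both stress tables together, among 72 other genes, the smallest summed differences were those of F20D6.11 (0.27), the multidrug resistance-associated transporter gene mrp-7 (0.30) and F53B2.8 (0.34). mrp-7 had log2 folds of 2.22 in N2 and 2.65 in VZ1. Closest to cth-1 in N2 were F21C10.9 (88.7 to 17.3 FPKM), a locus shared by F28A12.3 and F28A12.4 (356 to 72.6 FPKM) and C30G12.2 (216 to 44.9 FPKM). A shared size of fold says nothing of shared function or control.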

How the data were processed

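RNA-seq of total RNA from 4 libraries was analysed from 4 deposited tables, of stress within each strain and of strain within each condition. The reads were processed with TopHat, Bowtie2 and Cufflinks on build ce10, per the submitters' processing notes, with versions not given in the sources used here. The FPKM values are the authors' and were taken as normalised within each pair, because each table compares a single pair of libraries. The p-values and q-values are also the authors', per the file headers. Every row is marked significant, with a largest q of 0.0492. Depth is unknown, so no counting intervals are given.

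Folds are ratios of the deposited FPKM values, with no pseudocount. No test was made across libraries. The genes tested, 14397 to 14420 for stress and 14358 to 14419 between strains, were worked back as q times rank over p, a step tested on simulated data. Locus starts were counted from 0 in the tables (the width then equals the annotated gene length for 14 of 279 loci, and for 0 if counted from 1) and are printed counted from 1. Of 35 pathway names 34 matched the RefSeq gene table of WBcel235, which was used for names and for the gene lengths in the check of locus starts. Flanking genes and exon numbers come from Ensembl's annotation of WBcel235. Named are the members, listed pathway genes, trx-1, skn-1, and for each member the 3 genes of nearest log2 fold per stress table and over both. The members, lists and tests were chosen with earlier results of these data known. Python 3.11.15 with pandas 2.3.3, numpy 2.4.6 and matplotlib 3.10.9 was used.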

Additional observations from a re-analysis of the deposited data

How the results depend on the processing

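Of 28 recomputed values, 27 kept their direction and met any limit set on the authors' q or, for counts, stayed within 1.5 times. The alternatives were 1 FPKM added to both libraries, at least 1 FPKM in both, a stricter q of at most 0.025, and current gene names for the pathway list. Many of these outcomes were fixed in advance. All listed values of the members are 20.3 FPKM or higher, so the 1 FPKM minimum could remove none. Adding 1 FPKM to both libraries can neither reverse a direction nor alter the authors' q. Counts of 0 could not change under a stricter filter. The 27 of 28 is therefore no measure of robustness. The exception was gcs-1 in VZ1, whose log2 fold of 3.16 has a q of 0.0324 and is not called at the stricter q. This leaves 2 of the 3 members called there, a count still scored as within 1.5 times. Adding 1 FPKM moved the members' log2 folds by at most 0.056 (cth-1). No paired analysis was possible because each group has 1 library, and for the same reason no comparison could be repeated without 1 of its libraries. The unknown depth limits what can be said of genes that are not listed.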
